A study of Mus musculus with 25 samples.

Results

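Lipid-associated macrophages are the macrophages that gather around dying fat cells in crown-like structures of obese adipose tissue. Of the genes that mark them, 9 were followed here, namely *Trem2*, *Itgax*, *Cd9*, *Cd63*, *Plin2*, *Gpnmb*, *Lgals3*, *Spp1* and *Mmp12*. They were taken by symbol from the count files, where Ensembl identifiers were joined to mouse gene symbols, and all 9 were found among 54752 genes. The libraries came from epididymal (eWAT) and inguinal (iWAT) white adipose tissue of male C57BL/6N mice. From eWAT there were 4 libraries of wild type mice on ND, 5 of wild type mice on HFD and 5 of *Acod1*-/- mice on HFD, and from iWAT 3, 5 and 3. ND is normal diet and HFD a high-fat diet with 60% of calories from fat, started at 5 weeks of age. The diet lasted 16 weeks by the labels, except in iWAT *Acod1*-/- libraries 2 and 3, which are labelled 17 and 18 weeks. *Acod1*-/- mice lack *Acod1*, the gene of the enzyme that makes itaconate, in every cell of the body, and wild type mice were littermates of theirs. No ND-fed *Acod1*-/- library was used, so genotype was compared under HFD alone.

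In crown-like structures, macrophages take up lipid released by adipocytes, carry it through lysosomes and store part of it in droplets. TREM2, a receptor for lipids and lipoproteins, signals through the adaptor TYROBP and the kinase SYK, and is needed for macrophages to take on this state in obese fat. The other markers serve adhesion (*Itgax*, *Cd9*), lysosomes and vesicles (*Cd63*, *Gpnmb*), droplet coating (*Plin2*) and the matrix and signals outside the cell (*Lgals3*, *Spp1*, *Mmp12*). The comparisons address how the genes respond to fat overnutrition, whether they differ between wild type and *Acod1*-/- mice on HFD, and whether both depots behave alike.

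All 9 genes were higher on HFD in wild type eWAT, by 1.96-fold (*Cd63*) to 40.9-fold (*Spp1*), and all 9 were lower in HFD-fed *Acod1*-/- than in HFD-fed wild type eWAT. The shares of all genes tested were 24.8% and 10.8%. In wild type iWAT 7 of the 9 rose on HFD, beside 25.9% of all genes. The count was 3 with the series of library numbers in the file headers as a term, a fit whose share of all genes is not given here. By genotype edgeR called 0 of all 14801 genes tested in iWAT, the 9 included. A call means an adjusted p under 0.1 (edgeR's quasi-likelihood test, Benjamini-Hochberg adjustment over all genes tested). The plot of CPM shows each library.

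**Figure D1:**
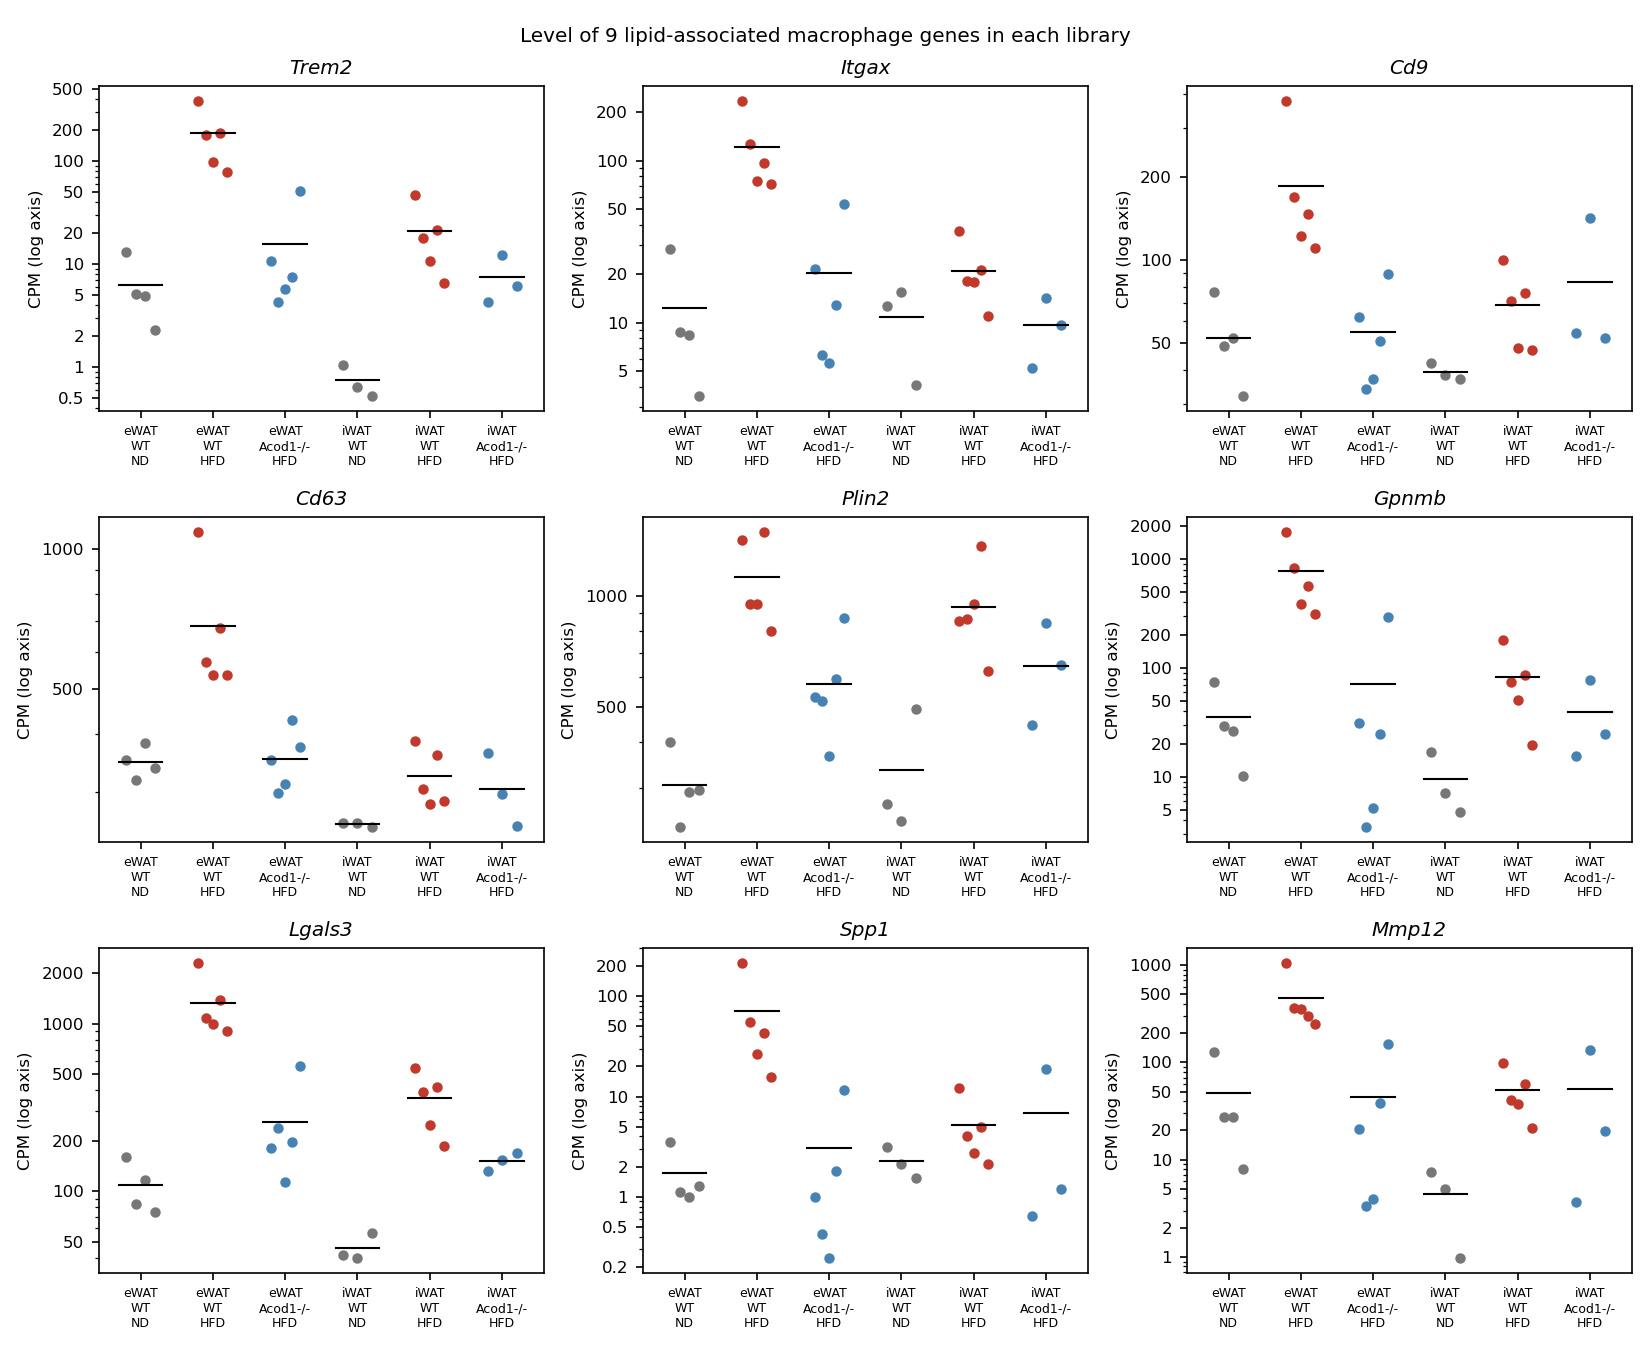
CPM (counts scaled to library size, log axis, TMM-normalised over 25 libraries) of the 9 genes in each library, by depot, diet and genotype; points are libraries and bars are group means. In eWAT the 5 HFD-fed wild type libraries lie above all 4 ND-fed libraries for each gene, and above all 5 *Acod1*-/- libraries for 8 of the 9.

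Values are CPM, which are counts scaled to the size of each library after TMM normalisation over all 25 libraries, so that a gene can be compared between libraries. Depth ran from 31.41 to 52.34 M counted reads (median 42.09 M). The library numbers in the column headers of the files fall in 2 runs, called series here. The split was read from these numbers alone, and what sets the series apart is not known. Series 2 held every ND-fed library and 1 library of each HFD-fed group, and series 1 the other 14, so diet and series nearly coincide. *Acod1* itself had at most 9 counts in an HFD-fed wild type library, at most 7 in an ND-fed and at most 2 in an *Acod1*-/- library, too few to check a genotype. Some libraries held transcripts of neighbouring tissue. The summed CPM of 5 epididymis genes was 7676 in eWAT ND library 2 and 1052 in eWAT *Acod1*-/- library 5, that of 3 skeletal muscle genes was 5405 in iWAT ND library 1, and that of 3 skin and mammary epithelium genes was 523 in iWAT *Acod1*-/- library 2. General macrophage markers were detected in every library (4 genes, 67.7 to 869 CPM summed), as were 6 adipocyte genes (7520.2 to 20163 CPM summed). RNA came from whole tissue, in which more cells of a type and more RNA per cell cannot be told apart.

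For 3 of the genes the RefSeq bases directly upstream of the start (GRCm38.p6, plus strand) are printed 5′ to 3′ because each holds a motif of a factor active in macrophages. Capitals mark GAGGAA, the core of PU.1 sites, on either strand (TTCCTC in *Trem2*) and TGANTCA, where N is any base. The AP-1 consensus has C or G at N, and *Trem2* has A there, outside that consensus.
Trem2 chr17:48346151-48346400: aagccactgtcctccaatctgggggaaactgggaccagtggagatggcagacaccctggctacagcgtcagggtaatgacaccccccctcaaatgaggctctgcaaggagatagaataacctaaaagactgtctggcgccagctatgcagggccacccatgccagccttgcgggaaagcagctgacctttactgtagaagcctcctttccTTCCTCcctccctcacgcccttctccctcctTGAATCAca
Spp1 chr5:104434861-104435110: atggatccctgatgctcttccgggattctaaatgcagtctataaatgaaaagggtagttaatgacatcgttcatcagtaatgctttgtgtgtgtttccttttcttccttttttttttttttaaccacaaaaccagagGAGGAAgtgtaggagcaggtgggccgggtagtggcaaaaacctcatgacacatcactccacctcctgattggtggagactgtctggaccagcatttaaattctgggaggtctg
Itgax chr7:128129300-128129546: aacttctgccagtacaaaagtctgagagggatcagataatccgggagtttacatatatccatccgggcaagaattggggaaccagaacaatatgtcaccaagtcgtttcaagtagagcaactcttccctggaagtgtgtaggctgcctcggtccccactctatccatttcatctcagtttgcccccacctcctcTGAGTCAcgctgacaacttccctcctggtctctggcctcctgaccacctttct

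Of 11 windows of up to 250 bases upstream of the starts of the 9 genes, 4 held GAGGAA (*Trem2*, *Spp1*, *Cd63* and *Mmp12*), as did 23.3% of 32851 such windows of all genes. TGANTCA stood in 3 (*Trem2*, *Itgax* and a second start of *Mmp12*) against 6.75% of all windows. The narrower AP-1 consensus was not counted apart. In *Trem2* TGAATCA began 9 bases and the PU.1 letters 40 bases before the start. In *Spp1* the PU.1 letters began 113 bases before the RefSeq start. CACGTG, the E-box read by lysosomal MiT/TFE factors, was in none of the 11 windows and in 6.02% of all. TCATGTG, the M-box, was in 1 (the second start of *Mmp12*) against 3.25%. Both strands were searched, and a match is a run of letters rather than a shown site.

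*Trem2* (ENSMUSG00000023992, chr17:48346401-48354147) in eWAT measured 13.1, 5.07, 4.93 and 2.26 CPM in the 4 ND-fed wild type libraries, 386, 180.1, 98, 187 and 78.6 CPM in the 5 HFD-fed wild type libraries and 10.8, 4.26, 5.73, 7.50 and 50.8 CPM in the 5 HFD-fed *Acod1*-/- libraries. Every HFD-fed wild type library was above every other eWAT library, and *Acod1*-/- library 5 stood above the other 4 of its group. *Trem2* was higher on HFD by 4.87 ± 0.87, adjusted p = 0.00113 (log2 fold change ± SE, here and throughout), and lower in *Acod1*-/- mice by genotype (-3.55 ± 0.74, adjusted p = 0.0136). HFD-fed *Acod1*-/- and ND-fed wild type eWAT overlapped (1.32 ± 0.74, adjusted p = 0.222). *Itgax* (ENSMUSG00000030789, chr7:128129547-128150657) encodes CD11c, an integrin of inflammatory macrophages and dendritic cells. In eWAT it measured 28.4, 8.80, 8.44 and 3.53 CPM in the 4 ND-fed wild type libraries, 234, 126, 74.5, 96.7 and 72.2 CPM in the 5 HFD-fed wild type libraries and 21.5, 6.30, 5.68, 12.9 and 54.3 CPM in the 5 HFD-fed *Acod1*-/- libraries. Its HFD-fed wild type libraries were again above all others, and its diet and genotype differences were 3.29 ± 0.76, adjusted p = 0.0044, and -2.58 ± 0.67, adjusted p = 0.0277.

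*Cd9* (ENSMUSG00000030342, chr6:125460266-125494791) and *Cd63* (ENSMUSG00000025351, chr10:128900989-128912822) encode tetraspanins, membrane proteins of the cell surface and of late endosomes. *Cd9* in eWAT measured 76.3, 48.8, 52 and 32.2 CPM in the 4 ND-fed wild type libraries, 378, 170.0, 122, 147 and 111 CPM in the 5 HFD-fed wild type libraries and 62, 34.2, 36.9, 51 and 89.3 CPM in the 5 HFD-fed *Acod1*-/- libraries. All HFD-fed wild type libraries were above all others, library 1 furthest, with a diet difference of 1.83 ± 0.40, adjusted p = 0.00329 and a genotype difference of -1.76 ± 0.37, adjusted p = 0.0136. *Cd63* spanned 318 to 383 CPM in ND-fed, 535 to 1088 CPM in HFD-fed wild type and 298 to 428 CPM in HFD-fed *Acod1*-/- eWAT. It had the smallest changes of the 9, 0.97 ± 0.20, adjusted p = 0.00255 by diet and -0.95 ± 0.19, adjusted p = 0.0118 by genotype, with no overlap of the HFD-fed groups. *Cd63* is also made by many cells other than macrophages. Between HFD-fed *Acod1*-/- and ND-fed eWAT the difference was 0.063 ± 0.38 for *Cd9* (95% interval -0.75 to 0.88) and 0.02 ± 0.20 for *Cd63* (-0.40 to 0.44).

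*Plin2* (ENSMUSG00000028494, chr4:86648386-86670060) encodes perilipin 2, which coats lipid droplets in macrophages and other cells. In eWAT it measured 399.7, 236, 293 and 298 CPM in the 4 ND-fed wild type libraries, 1419, 947, 948, 1491 and 802 CPM in the 5 HFD-fed wild type libraries and 529.6, 518, 367, 595 and 870.2 CPM in the 5 HFD-fed *Acod1*-/- libraries. *Acod1*-/- library 5 lay above HFD-fed wild type library 5, so *Plin2* was the 1 gene whose HFD-fed groups overlapped. It was higher on HFD (1.87 ± 0.26, adjusted p = 0.000382) and lower by genotype (-0.96 ± 0.24, adjusted p = 0.0224), and was above ND in HFD-fed *Acod1*-/- mice (0.91 ± 0.25, adjusted p = 0.0306). *Gpnmb* (ENSMUSG00000029816, chr6:49036546-49070929), a transmembrane glycoprotein induced by lysosomal stress, measured 74.6, 29.2, 26.3 and 10.3 CPM in the 4 ND-fed wild type libraries, 1787, 833, 391, 561 and 311 CPM in the 5 HFD-fed wild type libraries and 30.9, 3.46, 5.16, 24.9 and 293 CPM in the 5 HFD-fed *Acod1*-/- libraries. *Acod1*-/- library 5 lay just under the lowest HFD-fed wild type library, and the other *Acod1*-/- libraries lay within or below the range of the ND-fed ones. The diet difference was 4.47 ± 1.24, adjusted p = 0.0116, and the genotype difference -3.44 ± 1.07, adjusted p = 0.0524.

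Among the secreted products, *Lgals3* (ENSMUSG00000050335, chr14:47367751-47386160) encodes galectin-3, a lectin released by activated macrophages. In eWAT it measured 159, 83.5, 117 and 75.4 CPM in the 4 ND-fed wild type libraries, 2309, 1082, 990.2, 1383 and 904 CPM in the 5 HFD-fed wild type libraries and 179.8, 238, 113, 197 and 562 CPM in the 5 HFD-fed *Acod1*-/- libraries. The HFD-fed wild type libraries were above all others, and *Lgals3* had the smallest adjusted p of the 9 for diet (3.62 ± 0.48, adjusted p = 0.000282) and for genotype (-2.37 ± 0.41, adjusted p = 0.011). It was also higher in HFD-fed *Acod1*-/- than in ND-fed eWAT (1.25 ± 0.43, adjusted p = 0.0604). *Spp1* (ENSMUSG00000029304, chr5:104435118-104441050), which encodes osteopontin, a matrix protein that attracts and holds macrophages, measured 3.52, 1.11, 0.985 and 1.29 CPM in the 4 ND-fed wild type libraries, 216, 55, 26.3, 42.8 and 15.6 CPM in the 5 HFD-fed wild type libraries and 0.998, 0.422, 0.246, 1.82 and 11.7 CPM in the 5 HFD-fed *Acod1*-/- libraries. It had the largest differences of the 9 by diet (5.35 ± 1.19, adjusted p = 0.00352) and genotype (-4.52 ± 1.03, adjusted p = 0.0168). *Mmp12* (ENSMUSG00000049723, chr9:7344381-7369499), macrophage elastase, measured 129, 27.7, 27.2 and 8.0 CPM in the 4 ND-fed wild type libraries, 1058, 361, 351, 302 and 249.6 CPM in the 5 HFD-fed wild type libraries and 20.6, 3.38, 3.99, 38.4 and 155 CPM in the 5 HFD-fed *Acod1*-/- libraries. The 5 HFD-fed wild type libraries were above all others (3.27 ± 1.10, adjusted p = 0.0291 for diet, and -3.39 ± 1.01, adjusted p = 0.0458 for genotype). *Spp1*, *Cd9* and *Mmp12* overlap the exons of Gm42793, Gm26728 and *Mmp1b*, so reads could be shared, and whether counting used strand is not given in the sources used here.

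Read against the background, 24.8% of 14936 genes tested in eWAT were called higher on HFD and 26.9% lower, and 17.2% had every HFD-fed above every ND-fed wild type library. All 9 genes were among those called higher and among those standing apart. By genotype 9.13% of genes were called higher and 10.8% lower, and 4.34% had every *Acod1*-/- below every HFD-fed wild type library, against 9 of 9 called lower and 8 of 9 apart. The median log2 fold change of the 9 was 3.29 by diet and -2.58 by genotype, beside -0.038 and 0.044 over all genes. The same HFD-fed wild type libraries enter both comparisons. Between HFD-fed *Acod1*-/- and ND-fed eWAT, *Lgals3* and *Plin2* were called higher, 2 of 9 against 13.5% of all genes, the median was 0.83 (all genes -0.015) and none of the 9 had groups apart. Of the other 7, *Trem2* had the smallest adjusted p (0.222), and the 95% intervals of *Gpnmb* (-1.25 to 3.30), *Spp1* (-1.32 to 2.98) and *Mmp12* (-2.22 to 1.99) on the log2 scale were wide. The call of *Lgals3* was lost without ND library 2, 3 or 4 or *Acod1*-/- library 5 (edgeR, adjusted p up to 0.143).

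**Figure D2:**
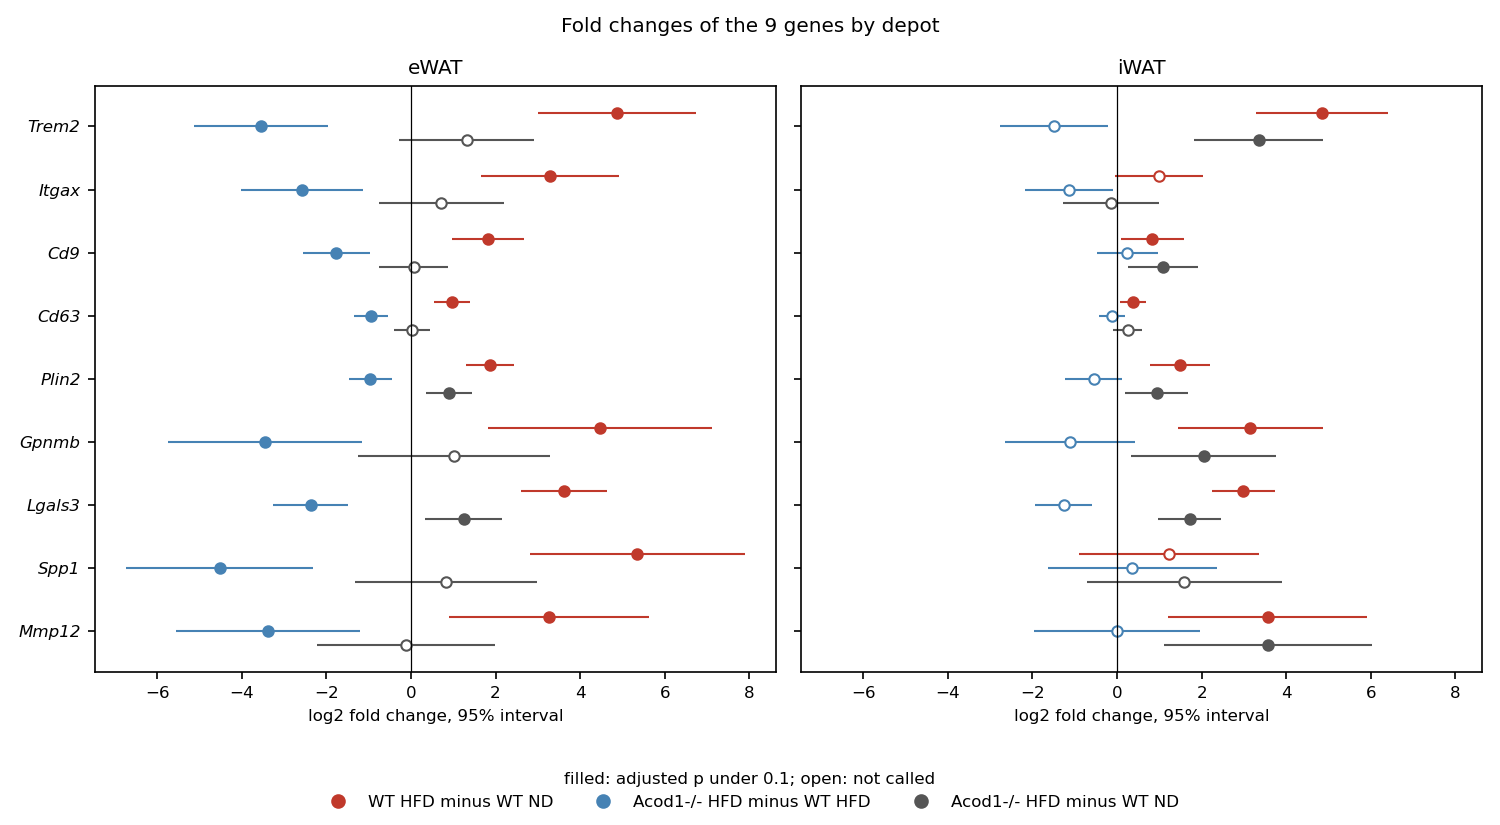
Log2 fold changes of the 9 genes (points) with 95% confidence intervals (bars) in each depot, for diet, genotype and *Acod1*-/- HFD against wild type ND, from edgeR's quasi-likelihood fit. Filled points are called at an adjusted p under 0.1 and open points are not. In eWAT the diet differences run from 0.97 to 5.35 and the genotype differences from -4.52 to -0.95.

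The eWAT genotype difference was also fitted within series 1, with 4 libraries per HFD-fed group, where all 9 genes were lower. The share of all genes called lower in that fit is not given here. There *Trem2* differed by -4.91, adjusted p = 0.00139, *Gpnmb* by -5.78, adjusted p = 0.00265, *Spp1* by -6.57, adjusted p = 0.00202, and *Plin2* by -1.27, adjusted p = 0.00506. Series 2 held 1 library of each group, HFD-fed wild type library 5 and *Acod1*-/- library 5. In that pair the ratio of wild type to *Acod1*-/- was 0.922 to 1.61 over the 9 genes (median 1.34), with wild type higher for 8. *Acod1*-/- library 5 was the highest of its group for 8 of the 9 genes, and HFD-fed wild type library 1 likewise. The summed macrophage markers of *Acod1*-/- library 5 were 289 CPM, beside 112 to 185 in the other 4. The part of the epididymal transcripts of this library in its values was not tested. Without it, all 9 genes were called lower by genotype. Without HFD-fed wild type library 1, 7 of 9 genes were called lower by genotype, since *Gpnmb* and *Mmp12* had adjusted p = 0.122 and 0.11 (edgeR). Without *Acod1*-/- library 1 or 4 the count was 8, *Gpnmb* having adjusted p = 0.108 and 0.113 (edgeR). Over the 14 fits with 1 library left out, 1006 to 2218 of all genes were called lower by genotype. With the series as a term, diet and genotype each gave 9 of 9, and the shares of all genes in that fit are not given here.

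In iWAT, a subcutaneous depot, *Trem2* measured 1.06, 0.644 and 0.524 CPM in the 3 ND-fed wild type libraries, 47.1, 18, 10.8, 21.7 and 6.60 CPM in the 5 HFD-fed wild type libraries and 4.31, 12.3 and 6.13 CPM in the 3 HFD-fed *Acod1*-/- libraries. Both HFD-fed groups were above all 3 ND-fed libraries, with the HFD-fed genotypes overlapping. The diet difference was 4.84 ± 0.71, adjusted p = 0.000518, against -1.48 ± 0.58, adjusted p = 0.236, by genotype. *Lgals3* measured 41.7, 39.9 and 56.5 CPM in the 3 ND-fed wild type libraries, 547, 390.5, 248, 419.6 and 186 CPM in the 5 HFD-fed wild type libraries and 132, 153 and 169 CPM in the 3 HFD-fed *Acod1*-/- libraries. Its 3 groups did not overlap, with *Acod1*-/- between the wild type groups. Its diet difference was 2.99 ± 0.34, adjusted p = 0.000149, and its genotype difference -1.26 ± 0.31, adjusted p = 0.137.

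*Gpnmb* in iWAT measured 16.7, 7.05 and 4.71 CPM in the 3 ND-fed wild type libraries, 182, 74.6, 51, 85.4 and 19.5 CPM in the 5 HFD-fed wild type libraries and 15.7, 77 and 24.5 CPM in the 3 HFD-fed *Acod1*-/- libraries, and *Mmp12* measured 7.52, 4.98 and 0.979 CPM in the 3 ND-fed wild type libraries, 99.5, 40.7, 37.4, 59.9 and 21.1 CPM in the 5 HFD-fed wild type libraries and 3.71, 135 and 19.6 CPM in the 3 HFD-fed *Acod1*-/- libraries. In both, HFD-fed wild type libraries were above the ND-fed ones, while *Acod1*-/- libraries spread from the ND-fed range to that of HFD-fed wild type mice or above, library 2 being highest. Diet differences were 3.15 ± 0.78, adjusted p = 0.00827 for *Gpnmb*, and 3.56 ± 1.07, adjusted p = 0.0217 for *Mmp12*. Genotype differences were -1.10 ± 0.70, adjusted p = 0.457, and 0.00084 ± 0.90 (95% interval -1.97 to 1.97), an interval wide enough to hold large changes in either direction.

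*Plin2* measured 272, 245 and 494 CPM in the 3 ND-fed wild type libraries, 852, 864, 951, 1361 and 624.8 CPM in the 5 HFD-fed wild type libraries and 445, 845 and 646 CPM in the 3 HFD-fed *Acod1*-/- libraries, higher on HFD without overlap (1.49 ± 0.32, adjusted p = 0.00381). *Cd9* measured 42.3, 38.2 and 37.1 CPM in the 3 ND-fed wild type libraries, 100.4, 71.3, 48, 76.1 and 47.1 CPM in the 5 HFD-fed wild type libraries and 54.2, 143 and 52 CPM in the 3 HFD-fed *Acod1*-/- libraries, and rose on HFD (0.84 ± 0.34, adjusted p = 0.0712). *Cd63* spanned 252 to 257 CPM in ND-fed and 282 to 387 CPM in HFD-fed wild type iWAT (0.37 ± 0.14, adjusted p = 0.0536), and 254 to 363 CPM in *Acod1*-/- iWAT. For all 3 genes the HFD-fed groups overlapped. The call of *Cd9* was lost without ND library 1, 2 or 3 or HFD-fed wild type library 1, 2 or 4 (edgeR, adjusted p up to 0.184), and that of *Cd63* without ND library 1, 2 or 3 or HFD-fed wild type library 1 or 4 (up to 0.153).

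*Spp1* and *Itgax* were not called by diet in iWAT. *Spp1* measured 3.15, 2.13 and 1.55 CPM in the 3 ND-fed wild type libraries, 12.3, 4.04, 2.76, 4.92 and 2.11 CPM in the 5 HFD-fed wild type libraries and 0.645, 18.9 and 1.19 CPM in the 3 HFD-fed *Acod1*-/- libraries, with overlapping wild type groups (1.23 ± 0.97, adjusted p = 0.328). Its highest iWAT value was that of *Acod1*-/- library 2, while the other 2 *Acod1*-/- libraries were below every ND-fed library. *Itgax* measured 12.7, 15.5 and 4.14 CPM in the 3 ND-fed wild type libraries, 36.7, 18.1, 17.7, 21.3 and 11 CPM in the 5 HFD-fed wild type libraries and 5.23, 14.1 and 9.68 CPM in the 3 HFD-fed *Acod1*-/- libraries, also overlapping (0.99 ± 0.47, adjusted p = 0.115). iWAT *Acod1*-/- library 2, highest of its group for 7 of the 9 genes, is the library with skin and mammary transcripts and the 17-week label, and the part of either in its values was not tested.

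Called higher on HFD in wild type iWAT were 25.9% of 14801 genes tested, with 24.2% lower and 23% apart and higher, against 7 of 9 called and 7 of 9 apart. The median of the 9 was 1.49 (all genes 0.0043). By genotype 0% of genes were called lower by edgeR (0 to 1263 genes with 1 library left out), and 4.59% were apart and lower, *Lgals3* alone among the 9. At an unadjusted p under 0.05 there were 3 of the 9 (*Trem2*, *Lgals3* and *Itgax*, all lower) and 2468 of all genes. DESeq2 called *Trem2* and *Lgals3*, and its count over all genes is not given here. The median by genotype was -0.55 (all genes -0.015). Within series 1, *Lgals3* was called lower (-1.49, adjusted p = 0.0396, edgeR) and no other of the 9, and the share of all genes in that fit is not given here. In series 2 the single pair of HFD-fed libraries had wild type to *Acod1*-/- ratios of 0.795 to 1.77 (median 1.08).

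HFD-fed *Acod1*-/- iWAT was above ND-fed wild type iWAT for 6 of 9 genes called, beside 18.5% of all genes called higher, 16.1% lower and 17.8% apart and higher. These were *Trem2* (3.35 ± 0.69, adjusted p = 0.00517), *Lgals3* (1.72 ± 0.34, adjusted p = 0.00387), *Mmp12* (3.56 ± 1.12, adjusted p = 0.0372), *Gpnmb* (2.05 ± 0.79, adjusted p = 0.077), *Cd9* (1.08 ± 0.38, adjusted p = 0.055) and *Plin2* (0.94 ± 0.34, adjusted p = 0.0619). Of these, *Trem2*, *Cd9* and *Lgals3* had groups apart. The median was 1.59 (all genes 0.047). With the series as a term 2 of the 9 were called (*Trem2* and *Lgals3*), and with libraries labelled 16 weeks alone, which leaves 1 *Acod1*-/- library, 3 were (*Trem2*, *Lgals3* and *Cd63*), while *Mmp12* turned to -0.27 (adjusted p = 0.867, edgeR). Without ND library 2 the count was 2, as it was without *Acod1*-/- library 2, and single libraries ended the call of *Cd9* and *Gpnmb* (also ND library 3), *Gpnmb* (HFD-fed wild type library 2) and *Plin2* (ND library 1). Over the 11 fits with 1 library left out, 1662 to 2861 of all genes were called higher.

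Markers of several cell types differed by diet in iWAT. Called higher were 5 of 5 fibroblast, 4 of 4 endothelial, 6 of 8 resident macrophage (median 1.83), 5 of 9 general macrophage (median 0.88) and 3 of 6 adipocyte genes, and called lower were 3 of 4 monocyte genes tested, 3 of 3 skeletal muscle genes and all of the lymphocyte genes. The summed CPM of *Cd3e*, *Trbc2*, *Cd79a* and *Ms4a1* was 284 to 433 CPM in ND-fed, 2.96 to 57.3 CPM in HFD-fed wild type and 1.56 to 4.94 CPM in *Acod1*-/- libraries, all 4 genes being lower on HFD, and in eWAT it was 2.26 to 26 CPM. Of 6 dendritic cell genes 4 were also lower, and dendritic cells express *Itgax*. Their part in the iWAT diet values was not tested. With the series as a term, iWAT diet gave 3 of 9 higher, *Trem2* (3.84, adjusted p = 0.00531), *Lgals3* (2.65, adjusted p = 0.00224), and *Plin2* (1.23, adjusted p = 0.0491; edgeR). The share of all genes called in that fit is not given here.

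Between depots, HFD-fed wild type eWAT exceeded HFD-fed wild type iWAT for 8 of 9 genes, both called and apart, where 10.8% of 15034 genes were called higher and 7.04% apart and higher. The differences ran from 1.07 ± 0.17 (*Cd63*) to 3.77 ± 1.0 (*Spp1*), while *Plin2* was not called (0.27 ± 0.26, adjusted p = 0.539). Without eWAT HFD-fed wild type library 1, *Mmp12* was not called either (adjusted p = 0.12, edgeR). The median of the 9 was 2.53 (all genes -0.01). Under ND, *Trem2* (3.10 ± 0.93, adjusted p = 0.0179), *Lgals3* (1.24 ± 0.45, adjusted p = 0.0463), and *Mmp12* (3.42 ± 1.29, adjusted p = 0.057) were higher in eWAT, 3 of 9 against 17.5%, and 4 of 9 were apart against 19% (median 0.44, all genes 0.02). *Lgals3* lost its call without eWAT ND library 1 or iWAT ND library 1 or 2, and *Mmp12* without eWAT ND library 1 or iWAT ND library 2 or 3. Under ND, 4 of 4 lymphocyte (median -6.59), 4 of 6 dendritic cell (-2.46) and 3 of 5 monocyte genes (-2.47) were lower in eWAT. Of 8 resident macrophage genes 5 were higher and 1 lower, and of 9 general macrophage genes 2 were higher and 1 lower. The part of these shifts in the ND values was not tested. Among HFD-fed *Acod1*-/- mice none of the 9 was called, against 2.01% of all genes called higher in eWAT (median 0.21, all genes 0.0061). By edgeR's unadjusted p under 0.05 there were 0 of the 9. Between HFD-fed wild type depots 8 of 9 general macrophage genes (median 1.81), 5 of 5 mesothelial and 4 of 5 mast cell genes tested were also higher in eWAT, and 4 of 4 endothelial and 3 of 6 adipocyte genes lower, and their part in the values of the 9 genes was not tested. Which libraries of both depots came from 1 mouse is not given by the labels.

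The diet change differed between depots, by the interaction term over 25 libraries, for *Spp1* (4.16 ± 1.48, adjusted p = 0.048), *Itgax* (2.34 ± 0.91, adjusted p = 0.0707), and *Cd63* (0.63 ± 0.26, adjusted p = 0.0863), each larger in eWAT, beside 14% of all genes (median of the 9 0.66, all genes -0.04). For *Trem2* the term was 0.061 ± 1.18, with a 95% interval of -2.38 to 2.50. Without eWAT HFD-fed wild type library 1 none of the 3 was called. *Spp1* was called without any other library, while *Itgax* lost its call without 1 of 7 libraries (adjusted p up to 0.192, edgeR) and *Cd63* without 1 of 11 (up to 0.159). By the same diet term 5 of 9 general macrophage, 4 of 6 dendritic cell and 4 of 4 lymphocyte genes were called higher, and 1 dendritic cell gene lower. Their part in the values of the 9 genes was not tested. For genotype none of the 9 terms passed edgeR's adjustment, beside 0.00665% of all genes, while 6 of the 9 and 1524 of all genes had an unadjusted p under 0.05. DESeq2 called *Cd9*, *Spp1* and *Cd63*, and its count over all genes is not given here. The 9 terms were all below 0, from -4.92 ± 1.41 (*Spp1*) to -0.43 ± 0.39 (*Plin2*), with a median of -2.03 (all genes 0.015). Without eWAT *Acod1*-/- library 5, 6 of 9 were called lower (*Trem2*, *Cd9*, *Gpnmb*, *Lgals3*, *Spp1* and *Mmp12*), and without iWAT *Acod1*-/- library 3, 3 of 9 (*Cd9*, *Cd63* and *Spp1*). Over the 25 fits with 1 library left out, 1 to 230 of all genes were called lower.

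Taken per length (CPM per kb of the deposited cDNA length), *Lgals3* had the highest mean level in HFD-fed wild type eWAT (718 CPM per kb), followed by *Plin2* (319), *Cd63* (185), *Gpnmb* (119), *Cd9* (90.7), *Mmp12* (64.2), *Spp1* (43.2), *Trem2* (37.6) and *Itgax* (25.1). In ND-fed eWAT *Cd63* led (94.5 CPM per kb) ahead of *Plin2* (87.3) and *Lgals3* (58.5), and *Trem2* and *Spp1* were lowest. HFD-fed wild type eWAT was the group with the highest mean for each of the 9, and ND-fed iWAT the lowest for 6. The ratio of highest to lowest group mean of CPM was 251 for *Trem2*, 103 for *Mmp12* and 81.8 for *Gpnmb*, but 4.73 for *Cd9*, 3.66 for *Plin2* and 2.67 for *Cd63*. For *Trem2* the order of mean levels was HFD-fed wild type eWAT (186 ± 122 CPM, SD), HFD-fed wild type iWAT (20.8 ± 15.8 CPM), *Acod1*-/- eWAT (15.8 ± 19.7 CPM), *Acod1*-/- iWAT (7.56 ± 4.16 CPM), ND-fed eWAT (6.33 ± 4.67 CPM) and ND-fed iWAT (0.742 ± 0.280 CPM). The neighbours from the second to the fifth place overlapped, and the first and last groups stood apart from the next.

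Since general macrophage genes also moved, each gene was set against the summed CPM of *Adgre1* (F4/80), *Csf1r*, *Mertk* and *Fcgr1* in the same library (log2 ratio, two-sided exact permutation test, adjusted over 54 tests). On HFD in wild type eWAT *Mertk* was called lower and the other 3 higher. The sum of the 4 genes was 163 to 220.2 CPM in ND-fed, 220.1 to 869 CPM in HFD-fed wild type and 112 to 289 CPM in *Acod1*-/- eWAT. Relative to it, 5 genes were higher on HFD in wild type eWAT, *Trem2* by 3.69, *Spp1* by 3.72, *Gpnmb* by 3.28, *Lgals3* by 2.36 and *Itgax* by 2.32 (exact permutation test, adjusted p = 0.0716 each). The log2 ratio of *Trem2* was -5.20 ± 0.93 in ND-fed (SD, n = 4), -1.51 ± 0.23 in HFD-fed wild type (n = 5) and -4.00 ± 0.87 in *Acod1*-/- eWAT (n = 5). By genotype 5 were lower, *Spp1* (-3.80), *Gpnmb* (-3.42), *Mmp12* (-3.01), *Trem2* (-2.49) and *Itgax* (-1.47; exact permutation test, adjusted p = 0.0716 each). *Cd9*, *Cd63* and *Plin2* were not called in either, with genotype differences of -0.20, 0.59 and 0.52. In *Acod1*-/- against ND-fed eWAT, *Lgals3* (1.35) and *Plin2* (1.14) were higher (exact permutation test, adjusted p = 0.0716 each). With *Adgre1* alone as denominator none of these was called in eWAT (exact permutation test, lowest adjusted p = 0.107). The genotype differences were then -2.70 for *Spp1*, -2.31 for *Gpnmb*, -1.91 for *Mmp12*, -1.38 for *Trem2* and -0.36 for *Itgax*. Unadjusted, the exact permutation test gave these p = 0.00794, 0.0159, 0.0476, 0.00794 and 0.302, in that order. With 9 general macrophage genes as denominator the same 5 were higher by diet and the same 5 lower by genotype, but *Cd63* was lower by diet (-1.02) and *Cd63* (0.99) and *Plin2* (0.92) were higher by genotype. In iWAT none was called relative to the 4 genes, while relative to the 9 genes *Trem2*, *Gpnmb*, *Lgals3* and *Mmp12* were higher by diet (2.57 to 4.26) and *Cd9* by genotype (1.06; exact permutation test, adjusted p = 0.0964 each). The smallest p that the groups allow in this permutation test is 0.00794 for eWAT genotype and 0.0159 for the other eWAT comparisons. In iWAT it is 0.0357, or 0.1 for *Acod1*-/- against ND.

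**Figure D3:**
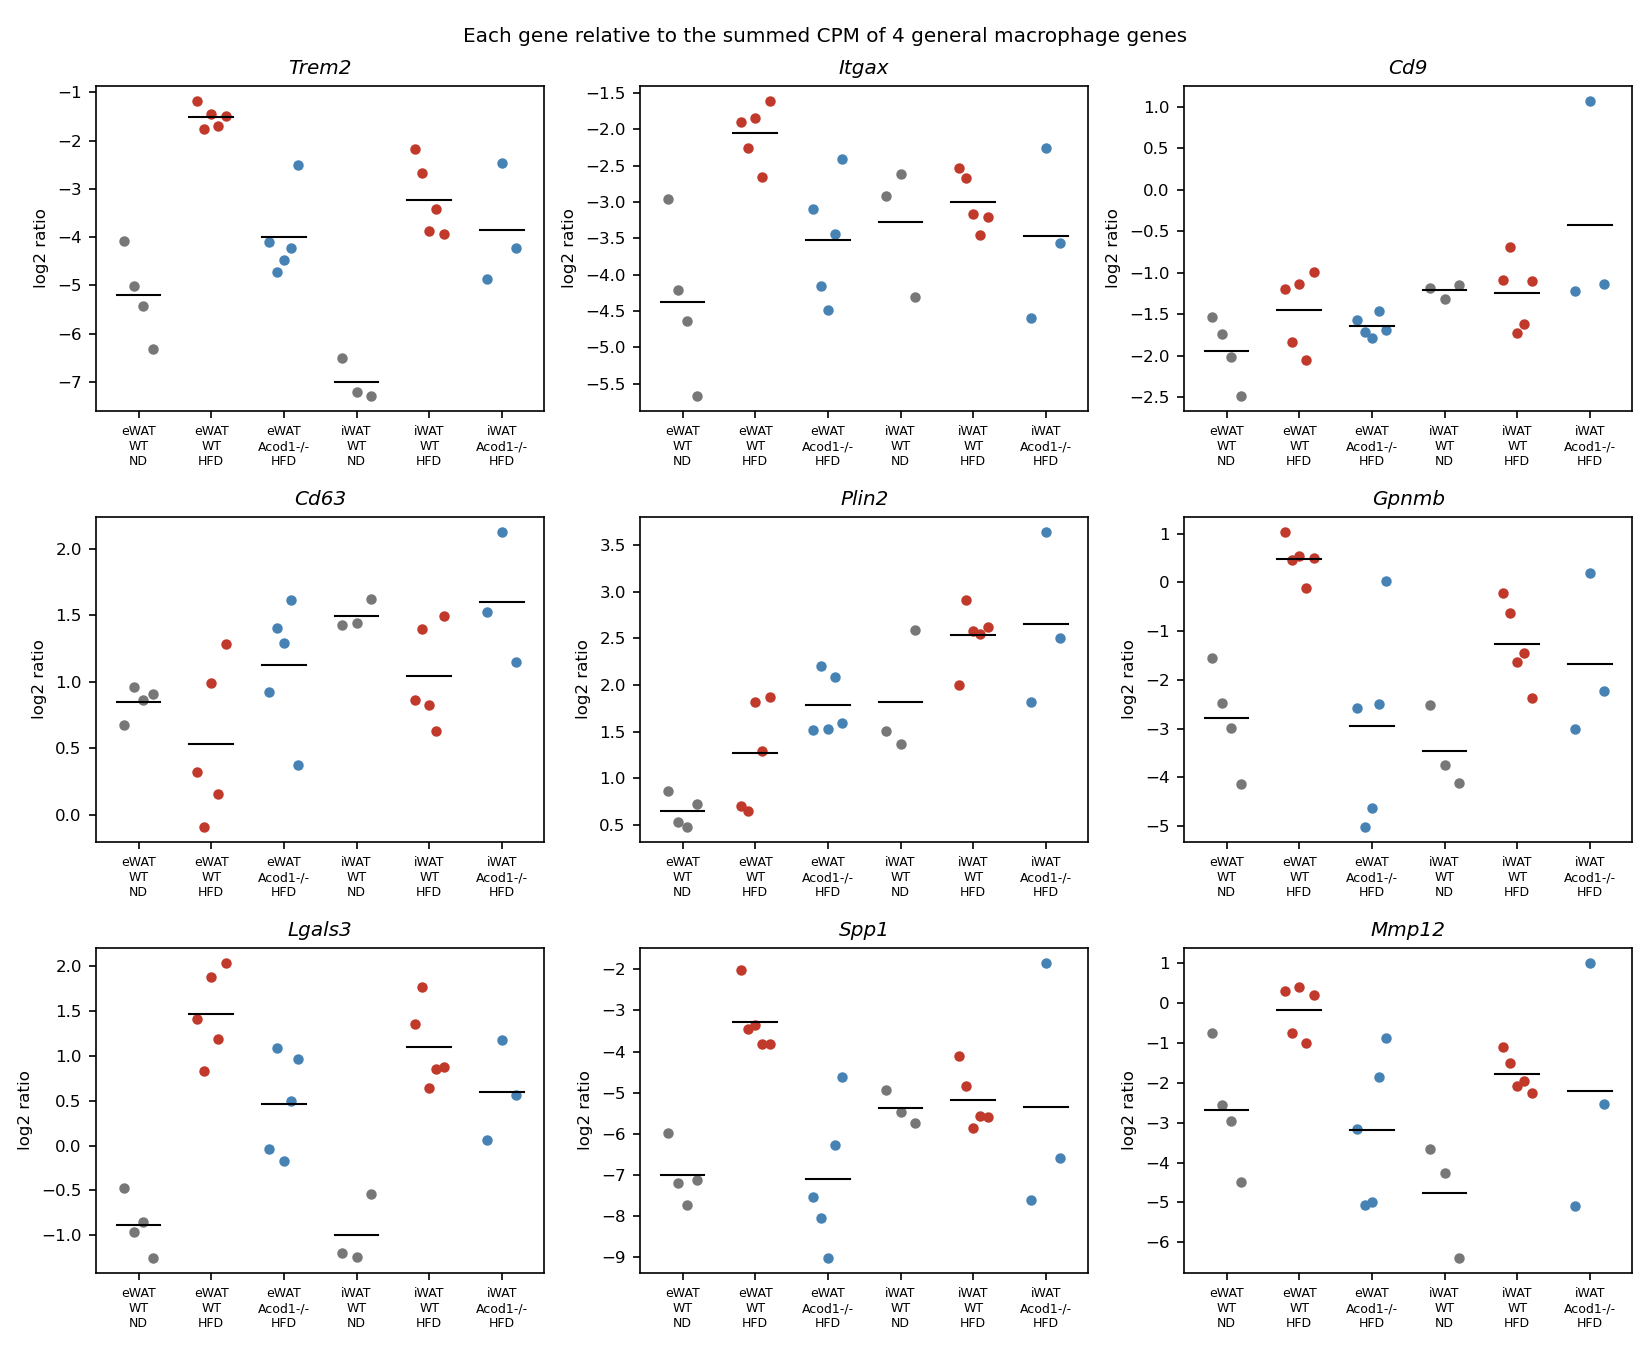
Log2 ratio of each gene's CPM to the summed CPM of 4 general macrophage genes, per library, by depot, diet and genotype. For *Trem2* and *Spp1* in eWAT the HFD-fed wild type libraries sit above the others, while for *Cd9* and *Cd63* the groups overlap.

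In eWAT, all 7 genes listed for TREM2 signalling (*Tyrobp*, *Hcst*, *Syk*, *Plcg2*, *Inpp5d*, *Adam10* and *Adam17*) were higher on HFD and lower by genotype, with medians of 1.47 and -1.42. *Tyrobp*, the adaptor, differed by 3.63 ± 0.53, adjusted p = 0.000447 for diet and -2.61 ± 0.46, adjusted p = 0.011 for genotype. *Syk* (1.52, adjusted p = 0.00845, and -1.42, adjusted p = 0.026) and *Plcg2* (1.47, adjusted p = 0.0271, and -1.31, adjusted p = 0.0732) are the kinase and the phospholipase downstream. In iWAT, diet raised *Tyrobp* (1.24, adjusted p = 0.0154) and *Adam10*, a sheddase of TREM2, and lowered *Hcst*, *Syk*, *Plcg2* and *Inpp5d*, which lymphocytes also express.

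Of 15 further genes of the lipid-associated state, 11 were higher on HFD in eWAT and 9 lower by genotype (medians 1.84 and -1.01), and 12 were higher on HFD in iWAT. Examples higher on HFD and lower by genotype were *Lipa*, the acid lipase (2.0, adjusted p = 0.00509, and -1.91, adjusted p = 0.0168), and the proteases *Ctsd* (1.85, adjusted p = 0.000282, and -1.10, adjusted p = 0.0121) and *Ctss* (3.09, adjusted p = 0.00295, and -2.54, adjusted p = 0.0174). The proton pump subunit *Atp6v0d2* (4.21, adjusted p = 0.0146, and -3.20, adjusted p = 0.0642) and the actin capper *Capg* (2.90, adjusted p = 0.00117, and -2.28, adjusted p = 0.0129) did the same. *Fabp5*, a fatty acid carrier, rose with diet (1.84, adjusted p = 0.000319) and was not called by genotype (-0.35, adjusted p = 0.329). *Lpl*, *Apoe*, *Cd36* and *Fabp4*, which adipocytes also make, were not called by diet in eWAT, with *Lpl* at 0.32, adjusted p = 0.348, *Apoe* at -0.25, adjusted p = 0.329 and *Cd36* at -0.13, adjusted p = 0.472.

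Of 14 genes for binding partners of the proteins, 9 were higher and 1 (*Timp3*) lower on HFD in eWAT, and 8 were lower by genotype. *Itgb2*, the chain that pairs with CD11c, differed by 2.30, adjusted p = 0.0109, and -2.10, adjusted p = 0.033. *Cd44*, a receptor for osteopontin, differed by 2.96, adjusted p = 0.000659, and -2.11, adjusted p = 0.0118, and *Timp1*, an inhibitor of metalloproteinases, by 4.27, adjusted p = 0.000598, and -2.76, adjusted p = 0.0127. Among relatives of the 9, 23 were tested in eWAT, where 14 were higher and 7 lower on HFD, and 3 were higher and 8 lower by genotype. The 3 higher were *Lgals12*, *Plin1* (0.67, adjusted p = 0.0471) and *Plin4* (0.75, adjusted p = 0.0469), the perilipins being coats of adipocyte droplets, and both perilipins were lower by diet (-0.66, adjusted p = 0.0232, and -0.57, adjusted p = 0.0653), opposite to *Plin2*. *Itgam*, the integrin chain nearest to *Itgax* in use by macrophages, differed by 2.23, adjusted p = 0.000895, and -1.71, adjusted p = 0.0124, and *Mmp13*, a collagenase, by 2.46, adjusted p = 0.0203, and -2.49, adjusted p = 0.0378.

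Of 12 transcription regulators, 6 were higher and 2 (*Nr1h2* and *Rxra*) lower on HFD in eWAT, and 4 were lower by genotype. These 4 were *Spi1*, which encodes PU.1, and the MiT/TFE members *Mitf* (0.99, adjusted p = 0.0139, and -0.95, adjusted p = 0.0357), *Tfeb* and *Tfe3*. *Tfec* was at 1.14, adjusted p = 0.185, and -1.46, adjusted p = 0.147, and *Pparg*, the adipocyte regulator that macrophages also use, at -0.37, adjusted p = 0.195, and 0.41, adjusted p = 0.217.

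Of 9 general macrophage genes, 8 were higher on HFD in eWAT and 8 lower by genotype, with *Mertk*, an efferocytosis receptor, lower on HFD. *Adgre1* differed by 2.87, adjusted p = 0.0049, and -2.48, adjusted p = 0.0219, *Csf1r* by 1.66, adjusted p = 0.00411, and -1.67, adjusted p = 0.0136, and *Cd68* by 3.89, adjusted p = 0.000631, and -2.70, adjusted p = 0.0118. Among markers of resident macrophages, 4 of 8 were higher and 1 (*Cd163*) lower on HFD and 2 (*Folr2* and *Mrc1*) were lower by genotype, with *Lyve1* at -0.034, adjusted p = 0.96, and 0.026, adjusted p = 0.978, *Timd4* at 0.28, adjusted p = 0.802, and 0.22, adjusted p = 0.878, and *Folr2* at 2.46, adjusted p = 0.00134, and -1.84, adjusted p = 0.0152. Of 5 monocyte genes 3 were higher on HFD and none was called by genotype, with *Ccr2* at 1.46, adjusted p = 0.0129, and -0.76, adjusted p = 0.201, and *Ly6c2* at 1.15, adjusted p = 0.0247, and -0.59, adjusted p = 0.282.

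Markers of other cells were counted in eWAT too, where 24.8% of all genes were higher and 26.9% lower on HFD. Mast cell genes, 4 of 5 tested higher on HFD and 4 lower by genotype, summed to 12.8 to 30.5 CPM in ND-fed, 21.3 to 189 CPM in HFD-fed wild type and 17.9 to 34.2 CPM in *Acod1*-/- eWAT. Fibroblast genes were higher on HFD for 5 of 5 and lower by genotype for 3, and proliferation genes for 5 of 5 and 3. Adipocyte genes gave 1 higher (*Lep*) and 3 lower of 6 on HFD, and 3 higher by genotype, with *Adipoq* at -0.52, adjusted p = 0.112, and 0.67, adjusted p = 0.0855. Endothelial genes were lower on HFD for 4 of 4, mesothelial genes for 3 of 5 and red blood cell genes for 4 of 4, with none of these called by genotype. Neutrophil genes were higher on HFD for 2 of 2 tested and lower by genotype for 1. Epididymis genes were lower on HFD for 2 of 5 and higher by genotype for 2, and skin and mammary genes were lower on HFD for 2 of 3. Lymphocyte genes gave 1 of 4 higher on HFD and 1 lower by genotype, dendritic cell genes 1 of 5 tested in each direction on HFD, and skeletal muscle genes 1 of 2 tested higher on HFD. The part of these shifts in the values of the 9 genes was not tested. The plot of calls by list shows these counts, with none in iWAT by genotype, where edgeR called 0 of all 14801 genes with no library left out.

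**Figure D4:**
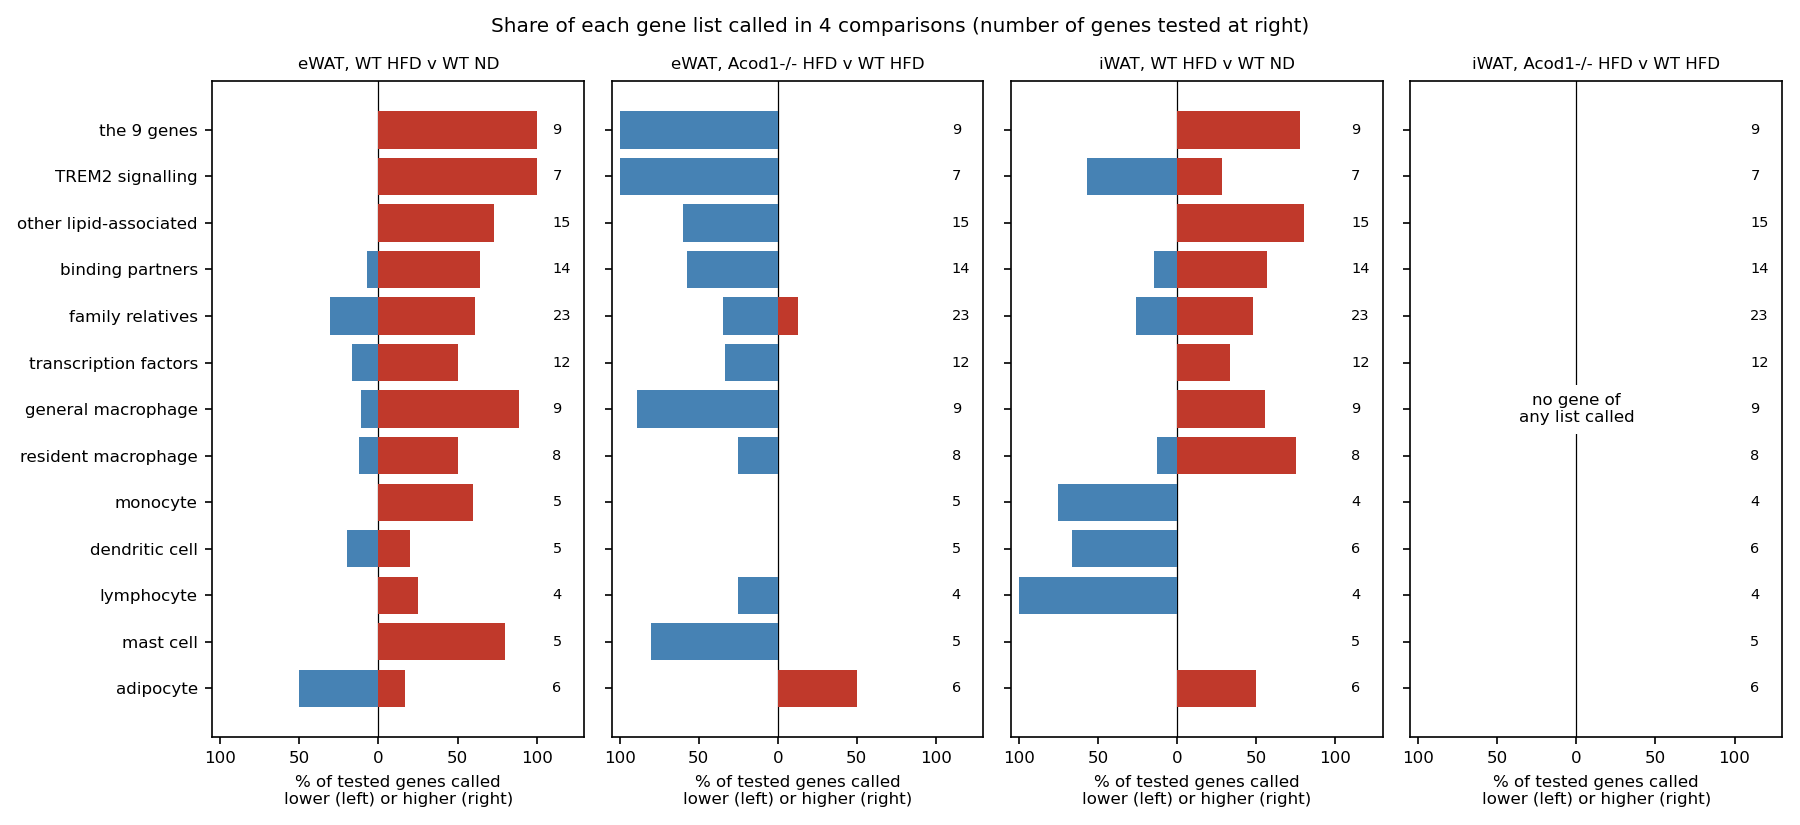
Share of tested genes in each list called higher (right of 0) and lower (left of 0) by diet and genotype in each depot, edgeR, adjusted p under 0.1. In eWAT the 9 genes and the 7 TREM2 signalling genes are called throughout in opposite directions by diet and genotype. The iWAT genotype panel is empty because edgeR called none of all genes tested there with no library left out.

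The genes whose log2 CPM followed the mean standardised level of the 9 most closely over all 25 libraries, which share depot and diet, were *Cd68* (0.976), *Anpep* (0.976), *Lgmn* (0.967), *Atf3* (0.963) and *Pld3* (0.960), given as Pearson's r. Over the 14 eWAT libraries they were *Ctss* (0.995), *Spi1* (0.990), *Cd300c2* (0.990), *Cd53* (0.990) and *Cd300lb* (0.990), and over the 11 iWAT libraries *Anpep* (0.970), *Creg1* (0.952), *Il1rn* (0.952), *Cysltr1* (0.952) and *Atf3* (0.950). These are descriptions across libraries of several groups. *Cd68* is a lysosomal glycoprotein of macrophages, *Ctss* a lysosomal protease and *Spi1* the gene of PU.1.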

How the data were processed

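Messenger RNA of 25 libraries was sequenced, and the authors trimmed reads with cutadapt, aligned them to GRCm38 with STAR and deposited, per library, counts of aligned reads on genes, the cDNA length of each gene (in bases, a feature size used here for CPM per kb) and FPKM values. The counting program, its use of strand and the tool versions are not given in the sources used here. The FPKM columns deposited by the authors followed from counts and lengths and were not used. Counts were tested with edgeR 4.0.16 (quasi-likelihood, TMM) in R 4.3.3, and tables were made in Python 3.11.15. A mean CPM of 1 or more was required of each gene, per depot with 3 groups in 1 fit, or over all 25 libraries for differences between depots. Classes of uncounted reads were 8.48% to 13.4% of reads and stayed out of library sizes. Depth was 31.41 to 52.34 M counted reads per library, and no pair of libraries within a group was a copy of another (lowest chi-square per degree of freedom 30.9). The labels do not say whether each library is of 1 mouse, but the numbers of mice per group in the paper equal the library numbers here. The p-values measure the spread between libraries, which may be partly technical. Genes not reported here were left out of the gene lists and of the sum of macrophage genes, which was planned with 1 more gene. Ratios to that sum were tested by exact permutation with scipy 1.17.1. Log2 CPM used a prior count of 2. Tests were checked on simulated data.

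The 9 genes and 23 gene lists were chosen with earlier results of these data known. The naming rule covers the 9 genes, a set of named list genes whatever their values, genes of lists with a count of 5 or fewer, and the 5 genes most alike in each ranking. Symbols were matched for 54723 of 54752 identifiers, and promoter sequences are from RefSeq. Alternatives were DESeq2 1.42.0, its size factors in edgeR, 1 CPM in every library, no filter on low values, an adjusted p under 0.05, each library left out, a replicate block, the series of header numbers as a term, series 1 alone, only the groups compared, and other denominators of the ratio. Leaving out eWAT wild type HFD library 1 with eWAT *Acod1*-/- library 5, and keeping only libraries labelled 16 weeks, were chosen after seeing the data.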

Additional observations from a re-analysis of the deposited data

Results flagged for a closer look

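Dixon's test was run on CPM without a log, where skew towards high values can add flags. In groups of 4 or 5 libraries, 12 of 36 group and gene combinations had a library far from the others of its group. Chance alone marks about 1 in 20 for normally distributed values, and the combinations share libraries. In eWAT *Acod1*-/- library 5 these were *Trem2* (50.8 CPM), *Gpnmb* (293 CPM), *Spp1* (11.7 CPM), *Lgals3* (562 CPM) and *Mmp12* (155 CPM). In eWAT HFD-fed wild type library 1 they were *Cd9* (378 CPM), *Spp1* (216 CPM), *Mmp12* (1058 CPM) and *Cd63* (1088 CPM). In eWAT ND library 1 they were *Spp1* (3.52 CPM) and *Mmp12* (129 CPM), and in iWAT HFD-fed wild type library 1 *Spp1* (12.3 CPM). Each was the highest library of its group.

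The diet effect differed between eWAT and iWAT, by the interaction term of edgeR's fit, for *Spp1* (4.16 on the log2 scale, adjusted p = 0.048), *Itgax* (2.34, adjusted p = 0.0707) and *Cd63* (0.63, adjusted p = 0.0863). Each was larger in eWAT, beside 14% of all genes called higher. Without eWAT HFD-fed wild type library 1 none of these was called (edgeR, adjusted p = 0.130, 0.143 and 0.159).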

How the results depend on the processing

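Among the alternatives that leave no single library out, 186 of 202 counts of called genes were within 1.5 times the reported count. Both directions of each comparison were counted, and a direction without calls that stayed empty counted as within. The share therefore says little about stability. By eWAT diet 8 or 9 genes were called higher and by eWAT genotype 8 or 9 lower under each of these alternatives. Shares of all genes called under the alternatives are not given here. The cause of the changes was not tested, except where fewer genes were tested (1 CPM in every library) or fewer libraries used. For eWAT *Acod1*-/- HFD against ND, 1 gene (*Plin2*) was called at an adjusted p under 0.05 and 1 with a replicate block. For iWAT *Acod1*-/- HFD against ND, 3 were called at an adjusted p under 0.05, 2 with the series as a term, 3 with only the groups compared and 3 with libraries labelled 16 weeks alone, where the lone *Acod1*-/- library is assumed to vary like the other groups. For iWAT genotype DESeq2 called 2 and series 1 alone 1, and for iWAT diet the series as a term left 3. For depot by diet, 1 was called at an adjusted p under 0.05 and 1 with no filter. With 1 CPM in every library, 1 was called between depots on ND and 5 on HFD in wild type mice. For depot by genotype DESeq2 called 3, and leaving out eWAT HFD-fed wild type library 1 with *Acod1*-/- library 5 gave 1 (*Spp1*), as for the depots of HFD-fed *Acod1*-/- mice (1, *Spp1*, lower in eWAT). Relative to *Adgre1* alone, 0 genes were higher by eWAT diet, 0 lower by genotype and 0 higher in *Acod1*-/- against ND. Relative to 9 macrophage genes, 1 was lower by eWAT diet, 2 higher by eWAT genotype, 4 higher by iWAT diet and 1 higher by iWAT genotype.

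Of the values that turned sign, 1 was of a gene called as reported, namely *Mmp12* in iWAT *Acod1*-/- against ND, at -0.27 with libraries labelled 16 weeks alone. For eWAT *Acod1*-/- against ND they were *Gpnmb* -0.76 and *Spp1* -0.28 (replicate block), *Mmp12* 0.80 and *Cd63* -0.091 (series as a term), and *Cd9* -0.19, *Gpnmb* -1.12, *Spp1* -0.97, *Cd63* -0.012 and *Itgax* -0.084 (both eWAT libraries left out). For iWAT genotype they were *Spp1* -0.57 and *Mmp12* -0.62 (replicate block), and *Cd9* -0.35, *Spp1* -3.02, *Mmp12* -3.81 and *Cd63* 0.15 (16 weeks alone). For iWAT *Acod1*-/- against ND they were *Itgax* 0.0041 (replicate block) and *Spp1* -0.21 (series as a term) and -1.81 (16 weeks alone). The others were *Spp1* -0.51 by iWAT diet (series as a term), *Trem2* -0.36 for depot by diet (both eWAT libraries left out), and *Mmp12* 0.41 and *Plin2* 0.094 for depot by genotype (16 weeks alone).

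Leaving out each library in turn gave 9 genes by eWAT diet and 7 to 9 by eWAT genotype. For eWAT *Acod1*-/- against ND, 1 to 2 genes were called, with *Cd9* at -0.19 to 0.28, *Gpnmb* -1.13 to 1.67, *Spp1* -0.97 to 1.41, *Mmp12* -1.53 to 1.05, *Cd63* -0.056 to 0.077 and *Itgax* -0.084 to 1.51. For iWAT genotype 0 to 1 was called (*Lgals3*), beside 0 to 1263 of all genes lower, with *Cd9* -0.37 to 0.53, *Spp1* -2.50 to 0.95, *Mmp12* -2.14 to 0.60 and *Cd63* -0.23 to 0.025. For iWAT *Acod1*-/- against ND 2 to 7 were called, with *Spp1* -1.29 to 2.16 and *Itgax* -0.53 to 0.21. Depot by diet gave 0 to 3 (*Trem2* -0.39 to 0.70, *Mmp12* -0.83 to 0.94), depot by genotype 0 to 6 and the depots on ND 1 to 4. Ratios to macrophage genes gave 0 to 0 by eWAT diet, 0 to 0 for *Acod1*-/- against ND and 0 to 5 by eWAT genotype, where smaller groups raise the smallest p that permutations can give, so a loss says nothing about stability.

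Whether replicate numbers pair the libraries cannot be told, since only libraries of the same number were compared. Of 13 same-numbered pairs in eWAT 9, and of 9 in iWAT 3, had a correlation of deviations over 0.1 (-0.278 to 0.261 and -0.304 to 0.313). With the number as a replicate block, eWAT diet and genotype gave 9 called genes each and iWAT diet 6. Depth limits genes near the floor of 3 counts, such as *Acod1*.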
